A study of Vitis vinifera with 156 samples.

Results

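The 150 genes described here were more abundant in dormant grapevine buds with each step down in temperature, from 22 to 11, to 7 and to 2 °C, during the first weeks of cold. They are 150 of the 42413 lines of a count table of Cabernet Sauvignon buds, a wine cultivar of Vitis vinifera. They were chosen by their own levels in these buds: the choice used libraries of at least 500000 counts from constant 2, 7, 11 and 22 °C at days 7, 13 and 20. Counts were scaled to counts per 1000000 of the library (CPM) and taken as log2(CPM + 1). A gene had to have a mean of at least 10 CPM in those 32 libraries and to be higher by at least 0.3 on the log2 scale at 2 than at 7 °C, at 7 than at 11 °C and at 11 than at 22 °C. There were 350 such genes among the 7201 with a mean of at least 10 CPM, and the 150 with the largest difference between 2 and 22 °C were kept.

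The buds were endodormant, that is, held dormant by signals within the bud, and sat on cuttings in growth chambers. Pretreatment buds were taken at day 0. Constant 2, 4, 7 and 11 °C were each sampled on 8 days, early (7, 13 and 20) and late (26, 34, 41, 55 and 69), while the last samples at 22 °C are of day 55. Further cuttings spent the time to day 26 at 2, 7 or 11 °C and then a regime with a mean of 7 °C and a daily swing of 5 °C to either side, with sampling at days 34, 41, 55 and 69. All groups were of 1 cultivar, and each of the 52 groups of temperature and day holds 3 libraries labelled as replicates. Nothing in the labels says whether replicates came from separate plants, so p-values measure the spread between these libraries.

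Grapevine buds gain freezing tolerance in the cool of autumn, a process called cold acclimation, and low temperature above freezing is its main cue once day length has set growth arrest. In plants at large, cold alters membranes and calcium signalling and induces transcription factors of the CBF/DREB family, which in turn raise genes for dehydrins, sugar metabolism and membrane lipids. Chilling also drives the release of endodormancy, so genes of both processes can move in the same buds. The lines of the table carry no gene identifier, so none of these classes can be looked up among the 150 genes, and the tissue could not be checked against bud markers. A gene is referred to by the number of its line, counted from 1 after the header.

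Library totals over the whole series ran from 27485 to 7138863 counts with a median of 2228888, and 10 libraries lay under 500000. In the days not used by the choice, median totals of the arms lay between 1713088 at 22 °C and 2965004 in the fluctuating arm after 11 °C, counting libraries of at least 500000. A word in the library names splits them into a First and a Second set. All libraries of 2, 7 and 11 °C and of pretreatment are in the First set, and all of 4 °C and of the fluctuating regime in the Second. Those of 22 °C are in the First set up to day 26, apart from replicate 3 of day 26, and in the Second after it. Between sets a difference in temperature and a difference of set cannot be told apart. The mean log2(CPM + 1) of all 7201 genes was 4.77 at 4 °C and between 4.86 and 4.90 in the fluctuating arms, against 5.01 to 5.14 at 2, 7 and 11 °C over days 26 to 69. At 22 °C, whose libraries of these days are mostly of the Second set and end at day 55, it was 5.20. Folds are therefore taken from fits with TMM scaling, in which the median gene moved by at most 0.06 except where stated.

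In the days that chose them, the members rose by a median of 1.04 on the log2 scale from 7 to 2 °C, 0.75 from 11 to 7 °C and 1.27 from 22 to 11 °C. These values chose the genes and are a description. The whole difference between 2 and 22 °C was 3.05 in the median member, 2.32 at the least and 6.51 at the most. The last gene inside and the first outside the 150 both differed by 2.32. Another 94 genes differed by at least as much between 2 and 22 °C but had a step under 0.3; in 39 of them a step ran the other way, and in 18 the smallest step lay between 0.2 and 0.3. Among the members, 30 had a smallest step between 0.3 and 0.4. The members spanned a mean of 10.1 to 2899 CPM in these libraries, with a median of 32.03.

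The steps were not equal in all members. The warmest step, from 22 to 11 °C, was the largest in 81 genes, the coldest step, from 7 to 2 °C, in 52, and the middle step in 17. The map of group means shows the first of these as rows that are already pale at 11 °C and the second as rows that turn dark only at 2 °C.

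**Figure D1:**
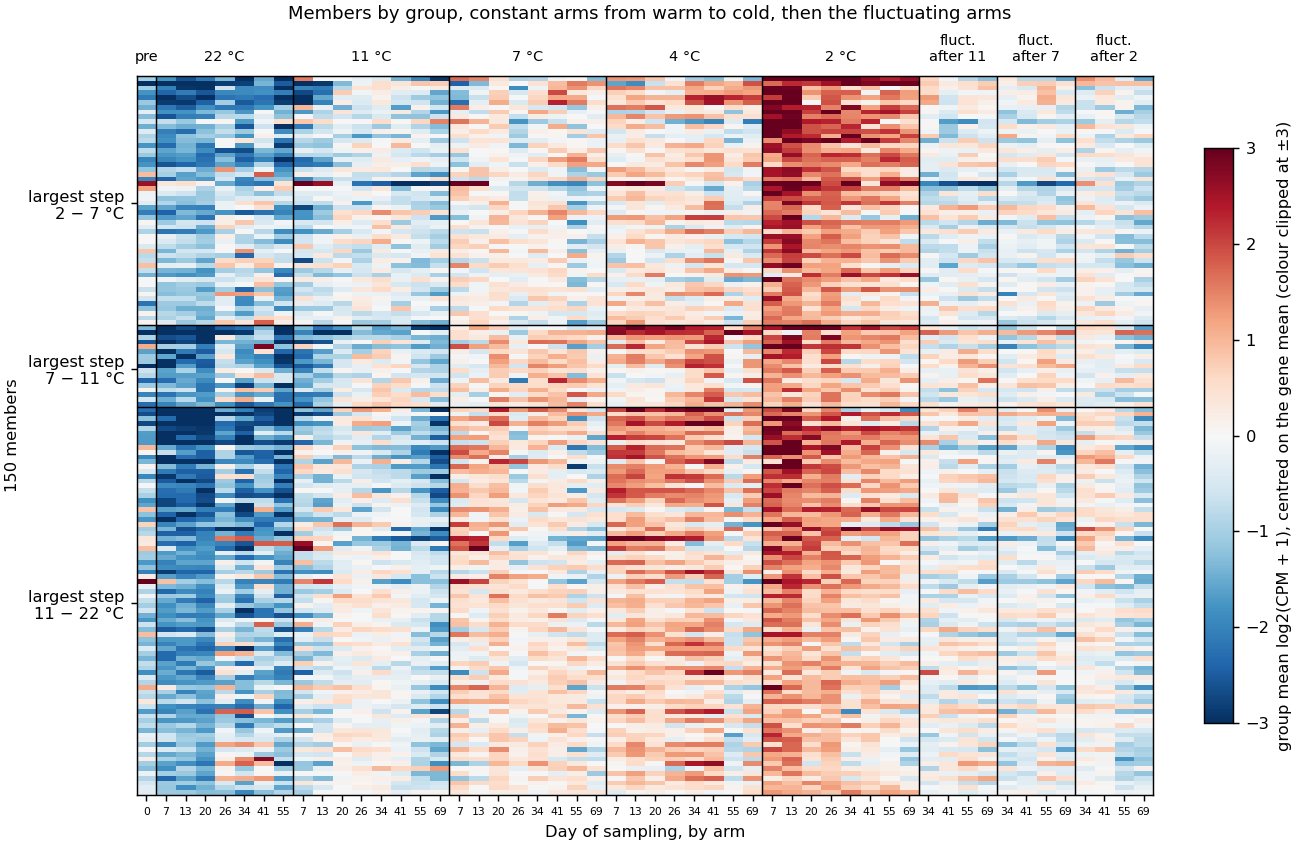
Group means of log2(CPM + 1) for the 150 members, each centred on its own mean over the groups (columns: pretreatment, constant arms from 22 to 2 °C and the fluctuating arms, with the day of sampling; rows: members by their largest step in the days that chose them, 52, 17 and 81 genes; libraries of at least 500000 counts; colour clipped at 3 log2 units to either side). Red fills most of the columns of 2 °C, 22 °C is mostly blue, and the fluctuating arms are pale.

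Days 26 to 69 were not used by the choice and show whether the order of temperatures lasted. The mean of log2(CPM + 1) over the 150 members, called the member level, was taken in each library of at least 500000 counts. At 2 °C its lowest, median and highest values over 15 libraries were 5.21, 5.78 and 6.41. At 7 °C they were 4.30, 4.95 and 5.55 over 15 libraries. At 11 °C they were 3.47, 4.33 and 5.63 over 15 libraries. The means were 5.81 ± 0.34, 4.98 ± 0.34 and 4.44 ± 0.56 (SD, n = 15 each), so the order held while neighbouring arms overlapped in single libraries. At 22 °C the lowest, median and highest of 9 libraries at days 26 to 55 were 3.17, 3.77 and 4.59. The members together took a median of 37016 CPM at 2 °C, 20486 at 7 °C, 11427 at 11 °C and 5764 at 22 °C in these days. In such whole-bud samples, fewer cells of a type and less RNA per cell cannot be told apart.

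**Figure D2:**
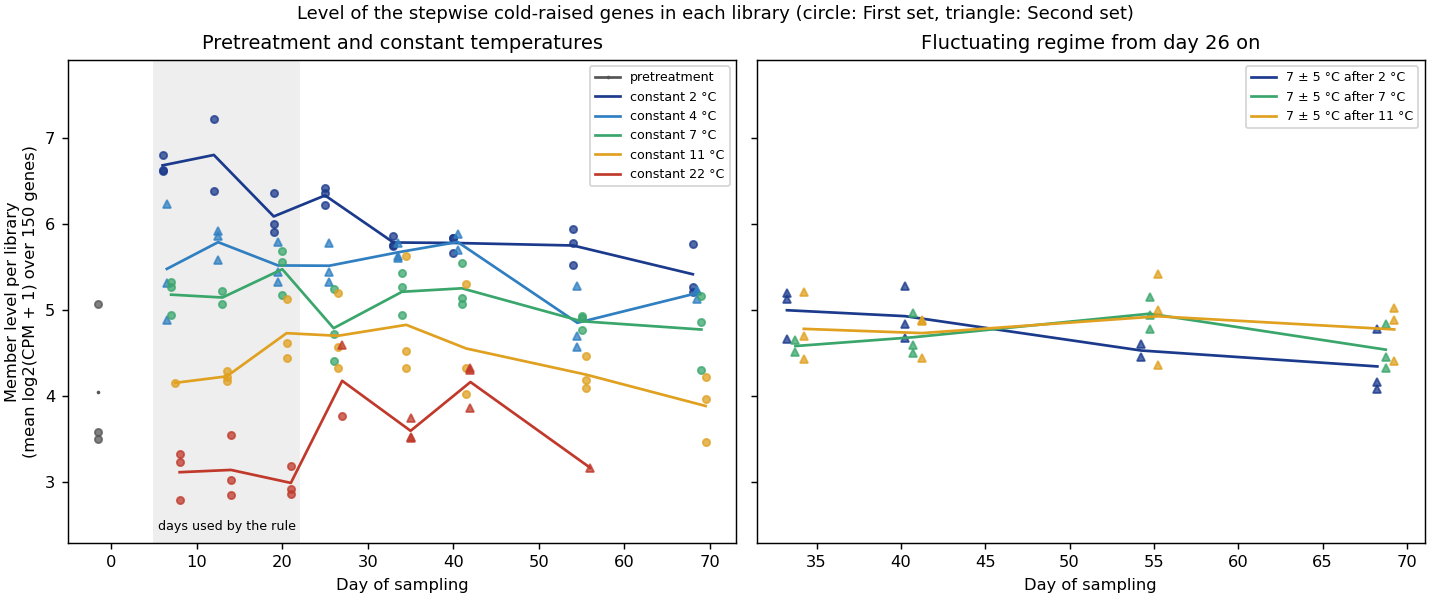
Member level (mean log2(CPM + 1) over the 150 genes) in each library by day of sampling, for pretreatment and the constant arms on the left and the fluctuating arms on the right; points are libraries of at least 500000 counts, circles of the First and triangles of the Second set, lines join group means, and the shaded days chose the genes. From day 26 on the constant arms 2, 7, 11 and 22 °C have means of 5.81, 4.98, 4.44 and 3.87 in that order, and the fluctuating arms lie together between 4.70 and 4.80.

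At 11 °C replicate 1 stands apart on 3 days. It had a member level of 5.20 at day 26, 5.63 at day 34 and 5.31 at day 41, where the other 6 libraries of these days lay between 4.03 and 4.58. The totals of these libraries were 1295370, 1362099 and 517681 counts, and the 10 highest genes took 36.5%, 27.4% and 23.6% of them, against 36.1% to 42.8% in the other 6. The spread within groups of 11 °C over days 26 to 69, pooled over days, was 0.51, against 0.18 at 2 °C and 0.32 at 7 °C. Without them the member level of 11 °C over days 26 to 69 was 4.21 ± 0.30 (SD, n = 12), between 3.47 and 4.58, and its day 26 mean was 4.45 (n = 2). The tests with 11 °C below are also given without them.

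Each step was then tested over all genes in the days not used. Between 2 and 7 °C at days 26 to 69, with 15 libraries against 15 in the First set, 99 of 150 members (66%) rose at 2 °C and 2 fell, where 12.6% of 11566 genes were called higher and 12.6% lower (edgeR, adjusted p under 0.05). Their median log2 fold change was 0.94 with quartiles of 0.43 and 1.49, against -0.02 for all genes tested. Between 7 and 11 °C in the same days, 22 of 150 members (14.7%) rose at 7 °C and 1 fell, where 1.79% of 11684 genes were called higher and 2.76% lower. The median was 0.48 with quartiles of 0.21 and 0.81, against 0.02 for all genes. This count was 62 without the 11 °C libraries that stand apart, where 8.42% of all genes were called higher. It was 1 without replicate 2, the single gene called in the whole table, and 8 without replicate 3, where 0.518% of all genes were called higher. The members' medians were 0.61, 0.41 and 0.43 in these fits. The same 7 °C libraries enter both steps.

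Between 11 and 22 °C at days 26 to 55, 66 of the 147 members tested rose at 11 °C and 9 fell, where 13% of 11655 genes were called higher and 16% lower. The median log2 fold change was 0.79, with a lower quartile of 0.07, against -0.02 for all genes. With RLE scaling 9.33% of genes were called higher and 20.4% lower, and 56 members rose. All but 2 of the 22 °C libraries lie in the other set here. At day 26, with 3 libraries against the 2 of the First set, 0 members were called by edgeR (1 gene of the whole table). There 56 members had an unadjusted p under 0.05, and the median of the members tested was 1.15. DESeq2 was not run on this day alone. Of these 22 °C libraries, replicate 2 had 388575 counts and a member level of 4.71, against 3.77 in replicate 1. The 11 °C libraries include the one that stands apart, at 5.20. Over days 26 to 55, the count of members that rose was 33 without replicate 1, where 6.29% of all genes did. Without replicate 3 it was 27, where 1.94% did. Without the 11 °C libraries that stand apart 58 members rose and 14 fell, with a median of 0.70, where 14.5% of all genes were called higher and 18.8% lower.

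Counting means in place of tests, 72.7% of the 150 members kept the order 2 above 7 above 11 °C over days 26 to 69, against 17.98% of the 7201 genes with a mean of at least 10 CPM. The whole order of the choice, with 11 above 22 °C as well, was kept by 50%, against 9.96% of those genes. There 22 °C ends at day 55 and lies mostly in the other library set. Among 2, 7 and 11 °C, both steps were still at least 0.3 in 75 members (50%), against 3.96% of those genes. In single libraries the arms overlapped for nearly all members: 5 had every 2 °C library above every 7 °C library, where 0.194% of the 7201 genes did. Every 7 °C library lay above every 11 °C library in 0 members and in 0% of the 7201 genes.

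The shape seen in the early days was also read in the later ones. Against the 12.6% of all genes called higher there, of the 52 members whose largest early step was the coldest one, 44 rose at 2 against 7 °C at days 26 to 69, with a median log2 fold change of 1.35. Of the 81 whose largest early step was the warmest one, 49 rose, with a median of 0.74, and 6 of the 17 with the largest middle step rose, with a median of 0.43. Between 11 and 22 °C the medians were 0.59, 0.90 and 0.57 in the same order. These classes come from the values that chose the genes, and the difference between them was not tested.

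**Figure D3:**
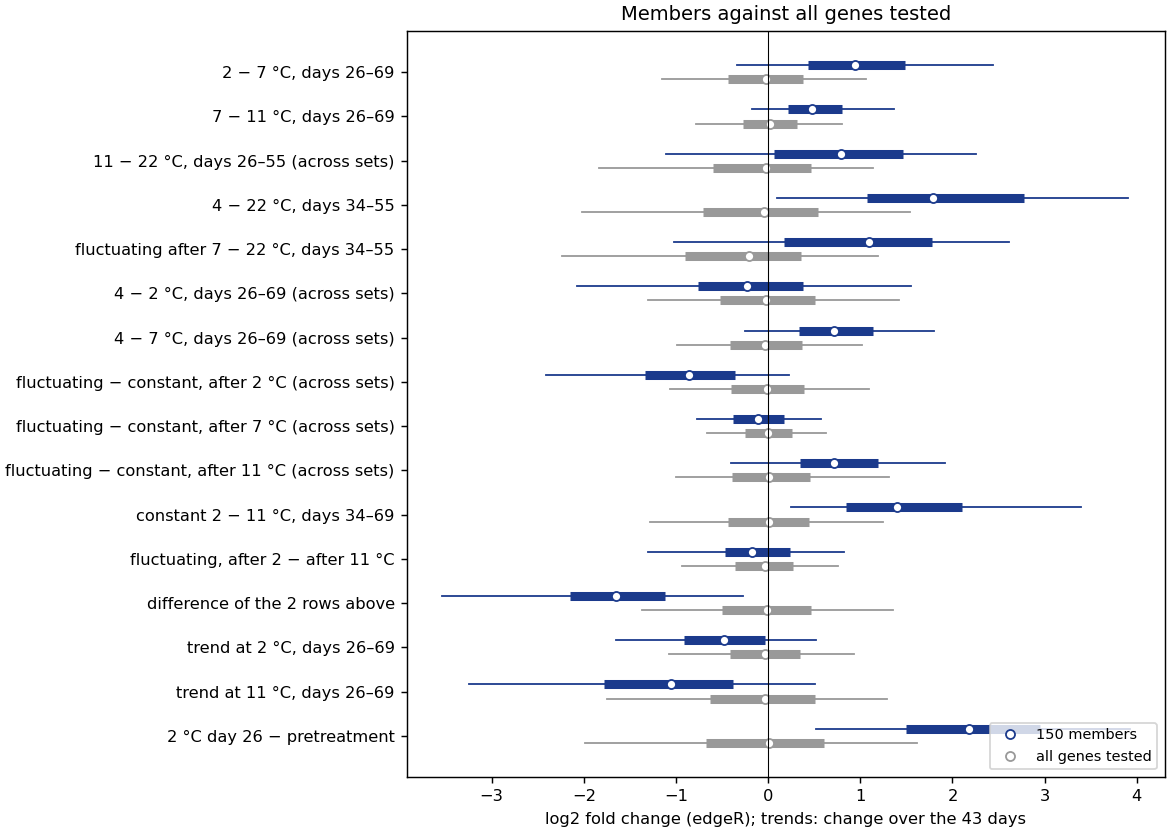
Log2 fold changes from edgeR for the members tested (blue) and for all genes tested (grey) in comparisons that the choice did not use; the circle is the median, the thick bar the quartiles and the thin line the 5th to 95th percentile, and trends are the change over 43 days. Member medians are 0.94, 0.48 and 0.79 for the colder side of the steps, -0.86 and 0.72 after transfer from 2 and 11 °C, and -0.11 after transfer from 7 °C, while those of all genes lie near 0.

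The 4 °C arm took no part in the choice at any day. At days 34 to 55, within the Second set, 70% of the 150 members rose at 4 against 22 °C and 0 fell (148 were tested), where 13.4% of 10714 genes were called higher and 16.6% lower. The median log2 fold change was 1.78 with quartiles of 1.07 and 2.77, against -0.04 for all genes. RLE scaling moved the median of all genes to -0.21 the share called higher to 11.1% and the share called lower to 21.9%, and 66.7% of the members rose. Without replicate 3 it was 42% of them, where 3.98% of all genes were called higher. The member level had its lowest, median and highest values at 4.58, 5.61 and 5.88 in the 8 libraries of 4 °C and at 3.17, 3.75 and 4.33 in the 7 of 22 °C. The arms thus did not overlap in libraries of at least 500000 counts, of which 22 °C had 1 at day 55. Under that total, replicates 1 and 3 of 22 °C at day 55 were at 4.73 and 4.01, and replicate 2 of 4 °C at day 41 was at 4.51. Gene by gene, in the libraries of at least 500000 counts, 31 members (20.7%) had every 4 °C library above every 22 °C library, where 1.46% of the 7201 genes did.

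The 4 °C arm was also set against 7 and 2 °C. Against 7 °C at days 26 to 69, 81 of 150 members rose at 4 °C and 1 fell, with a median of 0.72, where 12.8% of 11076 genes were called higher and 10.4% lower. Against 2 °C, 53 fell at 4 °C and 31 rose, with a median of -0.23, where 24.3% of 10982 genes were called lower and 24.4% higher. In percent, 35.3% of the members fell against 2 °C and 20.7% rose, so members above 2 °C were no more frequent than among all genes. Both comparisons run across the library sets and share the 4 °C libraries. Without replicate 1 the count above 7 °C was 45 (6.47% of all genes were called higher) and without replicate 3 it was 43 (3.67% of all genes). Against 2 °C, 15 rather than 31 members rose without replicate 3, where 15.7% of all genes did. By shape, 30 of the 52 members with the largest coldest step fell at 4 against 2 °C and 5 rose. Of the 81 with the largest warmest step 21 fell and 20 rose, near the shares of all genes. The member level of 4 °C over days 26 to 69 was 4.58, 5.38 and 5.88 (lowest, median, highest of 14 libraries), and its mean was 5.38 ± 0.39 in plain CPM and 5.63 with TMM-scaled totals, where 2 and 7 °C were at 5.83 and 4.81.

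Buds moved from 2 °C to the fluctuating regime lost much of the difference. At days 34 to 69, 92 of 150 members fell against buds kept at 2 °C and 0 rose, where 12.7% of 10683 genes were called lower and 10.8% higher. The median log2 fold change was -0.86 with quartiles of -1.33 and -0.36. The member level had its lowest, median and highest values at 4.09, 4.67 and 5.28 in 11 libraries after transfer and at 5.21, 5.76 and 5.94 in the 12 kept at 2 °C, so the highest library after transfer passed the lowest one kept at 2 °C. Gene by gene, 19 members (12.7%) had every library kept at 2 °C above every one after transfer, where 1.15% of the 7201 genes did. Buds moved from 11 °C went the other way. There 59 of 148 members rose and 1 fell, with a median of 0.72 and quartiles of 0.35 and 1.19, where 11.6% of 11605 genes were called higher and 7.83% lower. The count was 84 without the 11 °C libraries that stand apart, where 19% of all genes were called higher. It was 5 without replicate 2, where 12 genes of the whole table were called, and 37 without replicate 3, where 5.05% of all genes were called higher. The members' medians were 0.85, 0.67 and 0.75 in these fits. Both transfers run across the library sets.

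After 7 °C, where the mean temperature stayed the same and the same sets were crossed, 0 of 148 members were called, as were 0% of 10511 genes by edgeR. At an unadjusted p under 0.05 there were 6 members higher and 11 lower, and 1166 genes in all. DESeq2 called 4 members lower and 182 genes in all. The median log2 fold change of the members was -0.11 with quartiles of -0.38 and 0.17. Between the transfers from 2 and from 11 °C, which share no library, 32 of the 148 members tested in both (21.6%) fell after 2 °C and rose after 11 °C, where 1.04% of the 10418 genes tested in both did. Another 59 members (39.9%) fell after 2 °C without a called rise after 11 °C, where 10.9% of those genes did, and 27 (18.2%) rose after 11 °C without a called fall after 2 °C, where 11% did.

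The fluctuating regime was also set against constant 4 and 22 °C, which lie in its own library set. Against 4 °C at days 34 to 69, within the Second set, 61 of 150 members were lower in the fluctuating arm after 7 °C and 0 higher, with a median of -0.73, where 4.19% of 10370 genes were called lower and 4.44% higher. Without replicate 3 the count was 2, of 3 genes called in the whole table, and the members' median was -0.68. Against 22 °C at days 34 to 55, in the same set, 66 of the 150 members rose in that arm and 3 fell (6 were not tested), with a median of 1.09, where 7.13% of 10789 genes were called higher, 17.4% lower, and the median of all genes was -0.21. Without replicate 3 the count was 6, where 0.29% of all genes were called higher, and the members' median was 1.24.

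The difference that phase I had set was compared with and without transfer. At days 34 to 69, 79.3% of the 150 members were higher in buds kept at 2 than in buds kept at 11 °C and 0 lower, with a median log2 difference of 1.40, where 16.3% of 11069 genes were called higher and 15.4% lower. Without the 11 °C libraries that stand apart it was 88% of the members, with a median of 1.54, where 18.9% of all genes were called higher. Between the fluctuating arms after 2 and after 11 °C, 1 of 150 members was higher after 2 °C and 7 were lower, with a median of -0.17, where 0.397% of 11080 genes were called higher and 0.776% lower. Without replicate 2 none was called in either direction (525 genes of the whole table at an unadjusted p under 0.05). The member level had its lowest, median and highest values at 4.09, 4.67 and 5.28 after 2 °C (11 libraries), at 4.33, 4.66 and 5.16 after 7 °C (11 libraries) and at 4.37, 4.87 and 5.41 after 11 °C (12 libraries). The arms overlapped over most of their range.

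The difference between these differences was tested in 1 fit, where an offset that all libraries of a set share drops out. It called 71.3% of the 150 members with a smaller 2 to 11 °C difference after transfer and 0 with a larger one, where 8% of 11583 genes were called in the first direction and 7.15% in the second. The median of the interaction was -1.65 with quartiles of -2.15 and -1.11, against -0.02 for all genes. The share of members was 82% without the 11 °C libraries that stand apart, where 10.3% of all genes were called in that direction, and 38% without replicate 2, where 1.75% were.

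Within the constant arms the members drifted downward with time in some temperatures. At 11 °C, 45 of 140 members fell over days 26 to 69 and 0 rose, with a median change of -1.05 over the 43 days, where 6.12% of 10299 genes were called falling and 4.82% rising. That count was 28 without the libraries that stand apart, which lie in the earlier days, with a median of -0.67, where 3.57% of all genes were called falling. It was 11, 5 and 23 without replicates 1, 2 and 3, where 0.874%, 0.151% and 2.5% of all genes were called falling, and the medians were -0.73, -1.25 and -1.19. At 2 °C 5 fell and 0 rose, with a median of -0.48, where 0.267% of 10116 genes were called falling and 0.336% rising, and without replicate 1 or 2 no member was called, and 2 and 0 genes in the whole table. At 4 °C 14 fell and 1 rose, with a median of -0.36, where 1.43% of 9116 genes were called falling and 0.636% rising; without replicates 1, 2 and 3 the counts were 5, 1 and 0, where 0.433%, 0.242% and 0% of all genes were called falling. At 7 °C 0 of 148 fell and 1 rose, with a median of -0.08, where 0.0766% of 10443 genes were called rising and 0.153% falling. At an unadjusted p under 0.05, 16 members rose and 12 fell, and 1177 genes passed in all. DESeq2 called 4 members rising and 4 falling, where 0.632% and 0.967% of all genes were called. Whether these trends differ between temperatures was not tested. At 2 °C the group mean of the member level went from 6.33 ± 0.10 at day 26 to 5.42 ± 0.31 at day 69 (SD, n = 3 each), and at 11 °C from 4.70 ± 0.45 to 3.89 ± 0.39.

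Before treatment the members were low. The pretreatment libraries had member levels of 5.07, 3.50 and 3.59, so replicate 1 stands apart from the other two. Its 10 highest genes took 25.1% of its counts, against 32.1% and 33.4%. The pretreatment mean of 99 members lay between their early means at 22 and 11 °C, 12 lay below 22 °C, 34 between 11 and 7 °C, 4 between 7 and 2 °C and 1 above 2 °C. Those early means chose the genes, so these counts are a description, and they were not taken over all genes. By day 26 at 2 °C, 87 of 150 members (58%) had risen over pretreatment and 1 had fallen, with a median log2 fold change of 2.17, where 4.55% of 10198 genes were called higher and 6.25% lower. Without pretreatment replicate 1 it was 85.3% of the members, where 15.5% of all genes were called higher. Leaving out replicate number 1 in both groups also gave 85.3%. Leaving out number 2 or number 3 gave 0 calls in the whole table, where 1861 and 1460 genes had an unadjusted p under 0.05.

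At 7 °C 0 members were called at day 26, and of 10426 genes 0% were called higher and 0.134% lower by edgeR, with a median of 0.82; 37 members were higher and 8 lower at an unadjusted p under 0.05, 1270 genes in all, and DESeq2 called 13 members higher. At 11 °C 9 of 132 were higher and 2 lower, with a median of 0.96, where 0.627% of 8936 genes were called higher and 1.16% lower. Without pretreatment replicate 1 these counts of higher members were 9 at 7 °C and 66 at 11 °C, where 0.461% and 11.7% of all genes were called higher. At 11 °C no gene of the whole table was called without replicate 2, without replicate 3 or without the day 26 library of 11 °C that stands apart, and 722, 889 and 1293 genes had an unadjusted p under 0.05. These comparisons share the pretreatment libraries, and the library names give all 3 the same sample number with different endings, so they may come from 1 sample.

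The values of 4 members follow, the pair with the largest early difference between 2 and 22 °C and the pair with the largest called fall after transfer from 2 °C. Gene line 18043 had 216, 554 and 909 CPM (lowest, median, highest of 8 libraries) at 2 °C in days 7 to 20, and 2.22, 3.56 and 14.1 in the 9 libraries of 22 °C. At days 26 to 69 it had 100.7, 177 and 326 CPM in the 15 libraries of 2 °C and 3.40, 14.5 and 39.1 in the 15 of 7 °C. Every 2 °C library of these later days lay above every 7 °C library. The same held in days 7 to 20, whose values chose the gene. Its log2 fold change from 7 to 2 °C in the later days was 3.70 ± 0.28 (SE, edgeR adjusted p = 2.67e-11), and from 11 to 7 °C 0.67 ± 0.36 (adjusted p = 0.284). At 4 °C it had 4.52, 12.8 and 50.1 CPM in 14 libraries, which overlapped 7 °C and not 2 °C. The fold change from 2 to 4 °C was -3.40 ± 0.31 (edgeR adjusted p = 1.28e-09). In the late days no library of the other arms, up to 82.3 CPM in the fluctuating arm after 2 °C and 70.9 CPM at 22 °C, reached the lowest of 2 °C.

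Gene line 14529 had 192, 385 and 1078 CPM at 2 °C in days 7 to 20 and 1.32, 5.18 and 11.2 at 22 °C. At days 26 to 69 it had 101.2, 256 and 668 CPM at 2 °C, 37.9, 200 and 426 at 4 °C and 12.5, 42.8 and 111.5 at 7 °C. Here the 4 °C libraries overlapped those of 2 °C over most of the range. The fold change from 2 to 4 °C was -0.32 ± 0.24 (edgeR adjusted p = 0.260) and that from 7 to 4 °C 2.53 ± 0.29 (adjusted p = 4.52e-07). The step from 7 to 2 °C was 2.87 ± 0.27 (edgeR adjusted p = 2.83e-09) and that from 11 to 7 °C 1.80 ± 0.36 (adjusted p = 0.00370). At days 34 to 55 it was higher at 4 than at 22 °C by 3.84 ± 0.57 (edgeR adjusted p = 5.25e-05), and at days 34 to 69 lower in the fluctuating arm after 7 °C than at 4 °C by -2.38 ± 0.30 (adjusted p = 6.22e-05). Both pairs lie within the Second set. The genes of lines 18043 and 14529, nearly equal in the early difference between 2 and 22 °C, therefore had different values at 4 °C; that difference between the genes was not tested.

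Both genes moved in either direction after transfer. From 2 °C, line 18043 fell to 5.33, 37.6 and 82.3 CPM in 11 libraries, a log2 fold change of -2.58 ± 0.31 (edgeR adjusted p = 1.04e-06), and line 14529 to 8.88, 47.6 and 121.8 CPM, a change of -2.45 ± 0.32 (adjusted p = 2.51e-06). From 11 °C they rose by 1.59 ± 0.26 (edgeR adjusted p = 0.000426) and 2.55 ± 0.31 (adjusted p = 2.77e-05). Both also fell with time at constant 11 °C, by -2.95 ± 0.48 and -3.33 ± 0.50 over the 43 days (edgeR adjusted p = 0.00232 and 0.00141). Over pretreatment they were higher at 2 °C on day 26 by 4.05 ± 0.58 and 3.98 ± 0.82 (edgeR adjusted p = 0.00691 and 0.0191).

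The pair with the largest fall after transfer was less abundant. Gene line 18461 had 5.57, 27.8 and 166.1 CPM in the 15 libraries of 2 °C at days 26 to 69 and 0.441, 2.22 and 13.4 in the 15 of 7 °C, with 6 of the latter at or under 3 counts. After transfer from 2 °C it had 0.407, 2.08 and 7.55 CPM in 11 libraries, 5 of them at or under 3 counts. The groups overlapped at the low end of the 2 °C libraries. The log2 fold change after transfer, which picked the gene and is a description, was -3.22 ± 0.41. That from 7 to 2 °C was 3.32 ± 0.43 (edgeR adjusted p = 8.26e-07). Gene line 7867 had 4.68, 19.2 and 58.4 CPM at 2 °C, 0, 3.70 and 11.6 at 7 °C and 0, 1.73 and 8.31 after transfer. Its median 2 °C library lay above every library of the other groups. Its fold change after transfer, which picked it as well and is a description, was -2.99 ± 0.36. From 7 to 2 °C the change was 2.41 ± 0.37 (edgeR adjusted p = 1.02e-05). At 4 °C both were lower than at 2 °C, by -3.21 ± 0.34 and -1.54 ± 0.24 (edgeR adjusted p = 3.46e-08 and 6.96e-06). At 2 °C on day 26 lines 18461 and 7867 were higher than before treatment by 4.78 ± 0.89 and 3.39 ± 0.66 (edgeR adjusted p = 0.0138 and 0.0165). For all 4 genes these last calls were lost without replicate 2 or 3.

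**Figure D4:**
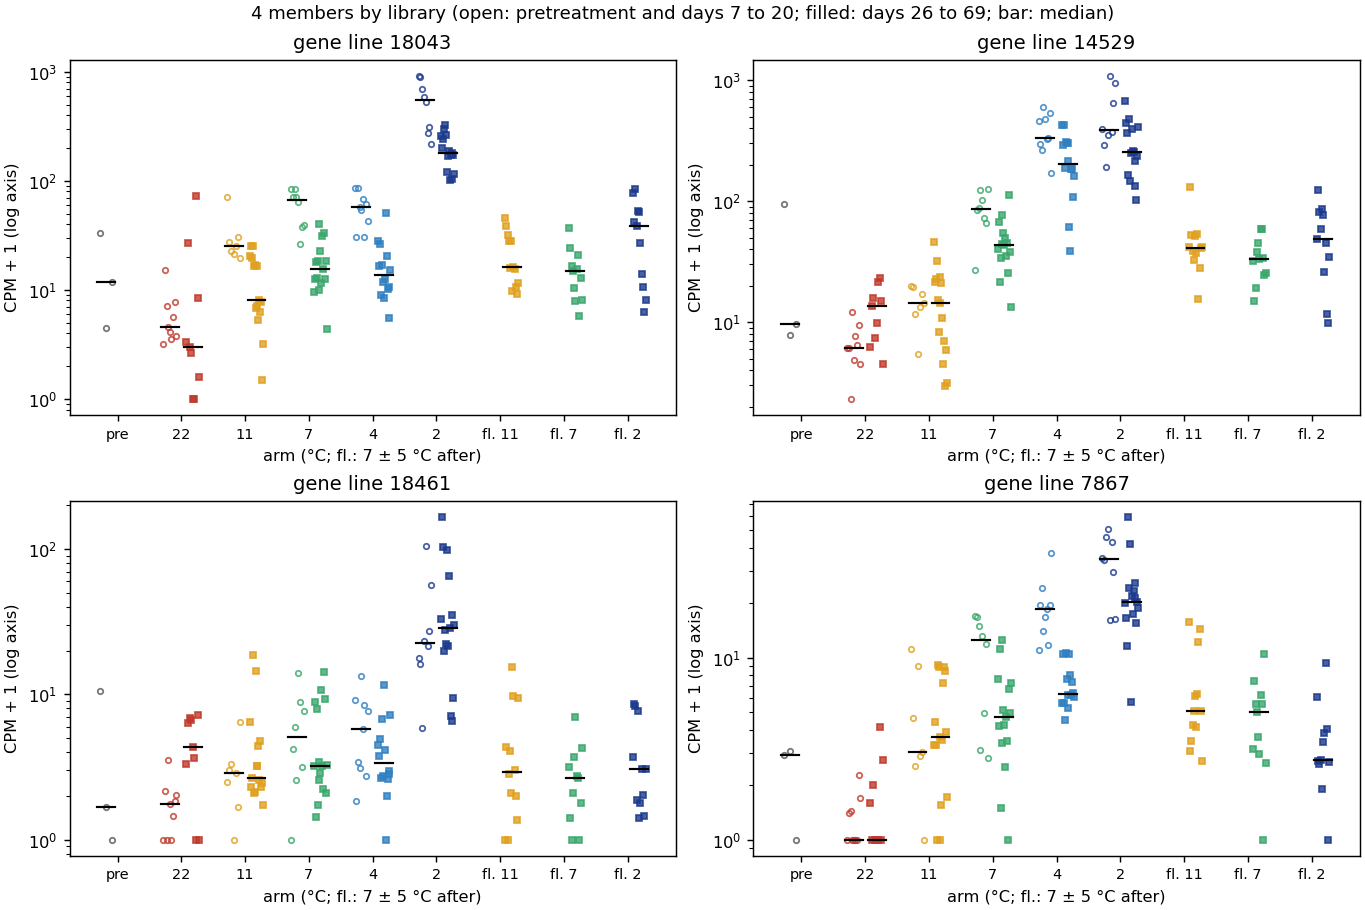
CPM + 1 on a log axis in each library of at least 500000 counts, by arm (fl.: fluctuating regime after the temperature given). The genes are those of lines 18043, 14529, 18461 and 7867. Open points are pretreatment and days 7 to 20, filled points are days 26 to 69, and bars are medians. Open points apart from pretreatment and 4 °C chose the members and picked lines 18043 and 14529 among them. Lines 18461 and 7867 were picked among the members by their fall after transfer from 2 °C. That fall was taken from libraries shown as filled points, so in their panels the filled contrast between 2 °C and fl. 2 °C is a description. At 4 °C line 14529 stays near its 2 °C median (200 against 256 CPM at days 26 to 69) and line 18043 near its 7 °C median (12.8 against 14.5 CPM).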

How the data were processed

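Libraries of the 3′ ends of mRNA from buds were read over 85 bases, per the labels' protocols. The authors deposited raw counts for each gene in each library, in whole numbers. FastQC, STAR and DESeq2 are named in the submitters' processing notes with no role; the build, annotation and counting tool, and whether duplicate reads were removed, are not given in the sources used here. All 156 columns matched 1 library each and 0 were left unused.

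From the counts, CPM used the library total. The members and lists were chosen with earlier results of these data known. Each of 21 comparisons was fitted over all genes kept by filterByExpr with the quasi-likelihood test of edgeR 4.0.16 under R 4.3.3 (scaled by TMM, day as a factor, or as the tested term for trends) on all libraries of the groups compared, whatever their total. A gene was called at a Benjamini-Hochberg adjusted p under 0.05 over all genes tested. SE is the log2 fold change over the root of the F statistic. Member levels are means over the 150 genes, with no test. The genes named are the 2 with the largest difference between 2 and 22 °C and the 2 with the largest called fall after transfer from 2 °C; since lines carry no identity, no other line is named. The tests were tried on simulated data. Alternatives were DESeq2 1.42.0, RLE scaling, no low-count filter, the replicate number as a block, minimum library totals and leaving out replicates; other settings were tried for the choice of genes. The minimum of 500000 counts and the removal of libraries that stand apart were added after the data had been seen. Totals set the precision of single values: in a library of 1000000 counts, 3 counts are 3 CPM.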

Additional observations from a re-analysis of the deposited data

Results flagged for a closer look

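The difference between phase I temperatures was unequal in the constant and the fluctuating arms for many of these genes, by a test of the difference itself (edgeR, adjusted p under 0.05, 12 libraries in each of 4 arms). It called 71.3% of the 150 members with a smaller 2 to 11 °C difference after transfer and 0% with a larger one. Of 11583 genes, 8% were called in the first direction and 7.15% in the second. Without replicate 2 it was 38% of the members and 1.75% of all genes in the first direction. All 4 genes given by library were among the members called: the interaction was -4.23 ± 0.40 on the log2 scale for line 18043 (adjusted p = 1.96e-10), -5.02 ± 0.45 for line 14529 (adjusted p = 3.37e-11), -3.76 ± 0.70 for line 18461 (adjusted p = 0.000132) and -3.89 ± 0.61 for line 7867 (adjusted p = 9.70e-06). Lines 18461 and 7867 were picked by their fall after transfer from 2 °C, a part of this interaction in the same libraries. Their values here are therefore a description.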

How the results depend on the processing

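Counts are given here as percent of the 150 members called in the direction of the report. The share of all genes called in that direction moved with the setting too and is given after them. The shares that rose at 2 against 7 °C (66%), fell after transfer from 2 °C (61.3%) and were higher at 2 than at 11 °C (79.3%) stayed within 1.5 times under every alternative. Leaving out replicate numbers gave 48% to 64.7%, 42% to 52% and 57.3% to 80.7% for these. For all genes it gave 4.49% to 13.9%, 5.88% to 8.07% and 7.93% to 13.7%. For 4 °C leaving out replicates gave 27.3% to 31.3% lower than 2 °C (35.3%), 42% to 74% above 22 °C (70%) and 28.7% to 47.3% above 7 °C (54%). Shares of all genes were 14.4% to 20.6%, 3.98% to 16.4% and 3.67% to 9.58%. It gave 38% to 74% for the interaction (71.3%), 0.667% to 18% for 7 against 11 °C (14.7%) and 18% to 43.3% for 11 against 22 °C (44%). Among all genes these were 1.75% to 7.27%, 0.00878% to 1.83% and 1.94% to 17.2%. The fluctuating arm after 7 °C had 4% to 55.3% above 22 °C (44%) and 1.33% to 44% below 4 °C (40.7%). All genes had 0.29% to 20.6% and 0.0303% to 6.84% there. Transfer from 11 °C had 3.33% to 49.3% (39.3%), and the phase I difference after transfer 0% to 0.667% (0.667%). For all genes these were 0.0952% to 16.7% and 0% to 0.382%. Falls at 11, 2 and 4 °C had 3.33% to 15.3%, 0% to 4% and 0% to 3.33% (30%, 3.33% and 9.33%). Among all genes they had 0.151% to 2.5%, 0% to 0.301% and 0% to 0.433%. Day 26 at 2 and 11 °C against pretreatment had 0% to 85.3% and 0% to 46.7% (58% and 6%), where all genes had 0% to 14.9% and 0% to 13.7%.

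DESeq2 called 22.7% for 7 against 11 °C, 2.67% falling after transfer from 7 °C, 5.33% for the phase I difference after transfer, 8.67%, 14.7% and 2.67% falling at 2, 4 and 7 °C, and 8.67% and 20% for day 26 at 7 and 11 °C. In the same order, it called 3.88%, 1.08%, 2.83%, 1.09%, 3.12%, 0.967%, 0.998% and 2.89% of all genes. Without the low-count filter it was 26% for 7 against 11 °C, 4.67% for the phase I difference after transfer, 0.667% falling at 7 °C, and 6.67% and 25.3% for day 26 at 7 and 11 °C. The shares of all genes were 1.55%, 1.79%, 0.157%, 0.213% and 1.61%. With at least 1000000 counts a library it was 2% for the phase I difference after transfer, and 25.3% and 0% for day 26 at 2 and 11 °C. All genes had 1.15%, 0.789% and 0% in these. With at least 500000 it was 2.67% for the phase I difference, where all genes had 0.884%. Without the libraries that stand apart it was 41.3% for 7 against 11 °C, 18.7% falling at 11 °C, 0% for day 26 at 11 °C, and, for pretreatment replicate 1, 6% and 44% at 7 and 11 °C. Shares of all genes there were 8.42%, 3.57%, 0%, 0.461% and 11.7%. At day 26 in the First set 0% were called for 11 against 22 °C, as were 0% of all genes.

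The choice passed 350 genes, 269 to 447 with a replicate left out, and 600 or 205 with steps of at least 0.2 or 0.4; of the 150 genes each setting took, 71.3% to 90.7% were members. With a pseudocount of 5 the member level was 4.43 at 22 °C, 5.07 and 5.16 in the fluctuating arms after 7 and 11 °C. For 4 against 2 °C, line 14529 had -0.67 without replicate 3 and 0.062 without replicate 2. The median trend of the members at 7 °C was -0.17 without replicate 2, 0.01 without replicate 3 and 0.052 without replicate 1. The cause of these changes was not tested. A block for the replicate number gave 26%, 2% and 14% for day 26 at 2, 7 and 11 °C and 2% and 6% falling at 2 and 4 °C, and moved no other share of members by over 1.5 times. The shares of all genes with the block were 0.749%, 0.0606%, 1.5%, 0.0906% and 0.887%. Same-numbered libraries correlated between -0.19 and 0.24 on average over the comparisons, and in none did every pair pass 0.1. For transfer from 2 °C 8 of 11 pairs passed 0.1, and for the fluctuating arm after 7 °C against 4 °C 1 of 10 did. These values cannot decide whether the numbers pair the libraries, since the labels do not say what the numbers mean.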

Other observations

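The order of lines in the table was also read, as a description with no test. Of the 150 members, 15 (10%) had another member within 5 lines, and of the 7051 other genes with a mean of at least 10 CPM, 361 (5.12%) had a member that near. How near other genes lie to each other was not counted, and the table does not say what its line order follows.

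Another 200 genes passed the same steps with a smaller difference between 2 and 22 °C. At days 26 to 69, 77 of them were called higher at 2 than at 7 °C and 1 lower (median 0.40), where 12.6% of all genes were called in each direction. After transfer from 2 °C 63 were called lower and 1 higher (median -0.41), where 12.7% of all genes were lower. After transfer from 11 °C 60 were called higher and 1 lower (median 0.38), where 11.6% of all genes were higher. At 4 against 2 °C 46 were called higher and 67 lower (median -0.04), where 24.4% and 24.3% of all genes were.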
